A study of Mus musculus with 14 samples.

Results

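Fasting switches on a small set of metabolic genes, and 8 of these were followed here on arrays of C57Bl6 mice that compare a sample with a pool in a second colour: Pck1, Fbp1, Tat, Ppargc1a, Ppara, Cpt1a, Pdk4 and Angptl4. They were taken by name, through all probes whose single symbol in the array's annotation was one of these 8 genes, out of 15094 genes that the annotation names in this way. Of the 8, 7 had 1 probe each, and all 7 passed the filter, which asked for 4 or more values per group. Tat, the tyrosine aminotransferase of amino acid breakdown, had no probe under that rule, so it has no ratio here and only its promoter was searched.

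The alcohol-fed group (7 arrays) comes from timed pregnant mice exposed to ethanol at about 180 to 200 mg/dl from gestational day 15 to 18, and the pair-fed group (7 arrays) from mice given maltose dextrin on the same days. All fed freely up to day 14, and fetuses were taken by caesarean section on day 19; the labels speak of exposed fetuses in their description and of pregnant females in their titles, so the source of the RNA is not settled. Every array carried its sample in Cy5 beside 1 shared pool in Cy3, total RNA of 7 animals kept on free food and water, which the labels name a weight matched control. The protocol gives an exposure of 4 days but the titles 5 days, and neither the tissue nor the number of litters is given in the sources used here, so the spread that p-values are judged by may be technical. No probe level can be set against another, because the values are ratios.

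In background terms, a fasting liver makes glucose from amino acids, lactate and glycerol, and burns fatty acids to pay for it. Glucagon and glucocorticoids raise the enzymes of gluconeogenesis through cyclic AMP and the coactivator PGC-1alpha, while fatty acids released from fat activate the nuclear receptor PPARalpha, whose targets take fatty acids into mitochondria and spare glucose. In the rodent fetus glucose comes mainly from the mother, and several gluconeogenic enzymes are known to appear in liver only around birth.

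The deposited values were read as log2 ratios of sample over pool, so that a negative value means less RNA than in the freely fed pool. That direction is likely, since the labels list the sample as channel 1 and the pool as the other, but it is not stated, and scale and centring were inferred from the values; if it is the other way round, every rise, fall and sign below exchanges. Each array was centred on its median. Exact values of 0 and the highest value in the table, 2.57% to 14.6% of an array, were treated as placeholders for a missing measurement. In a bulk sample fewer cells of a type and less RNA per cell cannot be told apart. The pool stands for 1 control sample with no spread of its own in the test, and no dyes were swapped, so a dye effect cannot be told apart from a difference from the pool.

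Against the pool, 3 of the 7 measured genes were lower in alcohol-fed samples (Ppargc1a, Ppara and Pck1) and 3 in pair-fed samples (Ppargc1a, Ppara and Pdk4), by limma with a Benjamini-Hochberg adjusted p under 0.05 over all 20876 probes tested. None of the 7 was called higher, and Cpt1a in alcohol-fed samples was the only one above the pool with an unadjusted limma p under 0.05 (0.0194). The members called made up 42.9% in either group, against 23.5% of all probes in the alcohol-fed group (8.02% higher, 15.5% lower) and 21.3% in the pair-fed group (7.86% higher, 13.5% lower). The 2 comparisons share the pool, so the genes common to both are not independent of each other. The median log2 ratio of the 7 was -1.41 in alcohol-fed samples, where that of all probes was 0.01, and -1.66 in pair-fed samples, where that of all probes was -0.03. Between alcohol-fed and pair-fed samples none of the 7 passed the test.

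**Figure D1:**
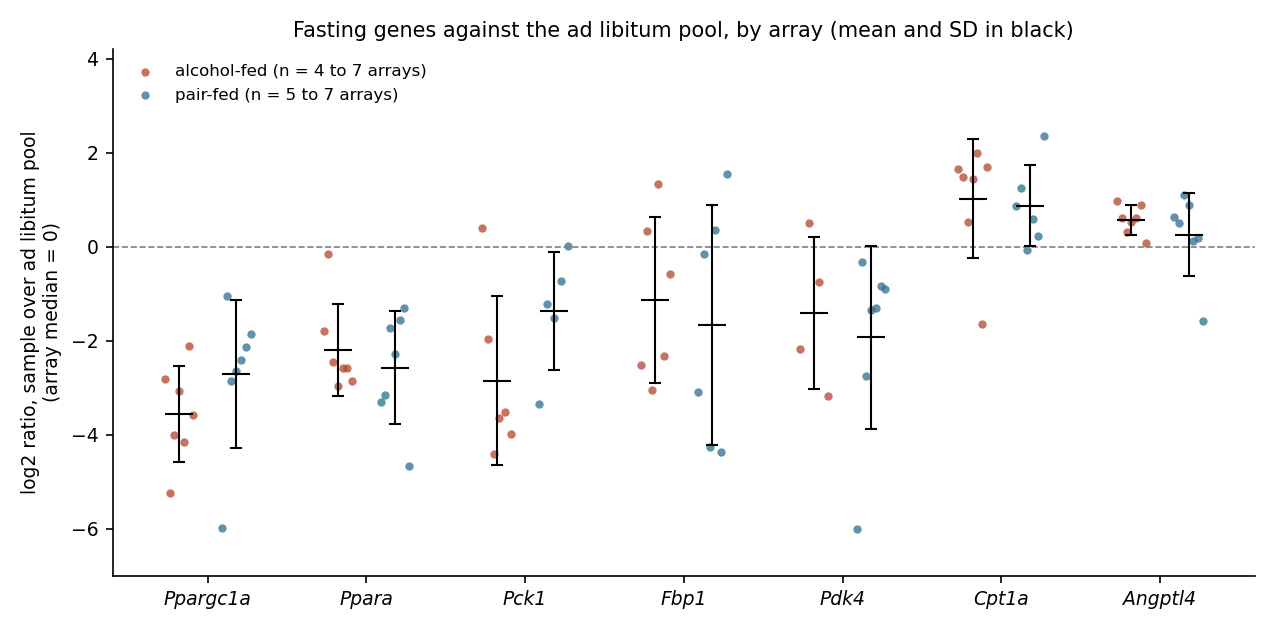
Log2 ratio over the ad libitum pool (vertical axis, array median at 0) of the 7 measured fasting genes in each alcohol-fed array (left of each pair) and each pair-fed array (right), with the mean and SD in black. Ppargc1a and Ppara lie below 0 on every array of both groups, while Angptl4 lies above 0 on 7 of 7 alcohol-fed and 6 of 7 pair-fed arrays.

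Ppargc1a encodes PGC-1alpha, the coactivator that drives gluconeogenic genes in fasting liver and mitochondrial genes in muscle and brown fat. Its centred log2 ratio ran from -5.23 (alcohol-fed 2) over a median of -3.58 to -2.12 (alcohol-fed 6) in alcohol-fed samples, against -6.00 (pair-fed 1), -2.42 and -1.05 (pair-fed 2) in pair-fed samples. All 14 arrays lay below the pool and the groups overlapped. The mean was -3.57 ± 1.02 (SD, n = 7), 11.8-fold lower than the pool, in alcohol-fed samples (limma adjusted p = 2.31e-05). In pair-fed samples it was -2.71 ± 1.57 (SD, n = 7), 6.54-fold lower (limma adjusted p = 0.000461). Only 1.05% of all probes had a lower mean in the alcohol-fed group and 2.33% in the pair-fed group. Pair-fed 1 stood apart, and without it the pair-fed mean was -2.16 (limma adjusted p = 0.000746).

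Ppara encodes the nuclear receptor PPARalpha, the fatty acid sensor of the fasting response. The ratios of alcohol-fed samples ran from -2.96 (alcohol-fed 4) over -2.57 to -0.16 (alcohol-fed 2), against -4.67 (pair-fed 7), -2.29 and -1.31 (pair-fed 6) in pair-fed samples. Again every array lay below the pool. Means were -2.20 ± 0.97 (4.58-fold lower, limma adjusted p = 0.000809) in alcohol-fed and -2.58 ± 1.20 (5.97-fold lower, limma adjusted p = 0.000181) in pair-fed samples (SD, n = 7 each). All arrays of the group lay below the pool for 14.7% of probes in alcohol-fed and 11.0% in pair-fed samples, and above it for 9.11% of probes in alcohol-fed and 7.60% in pair-fed samples. An exact sign-change permutation test gave an unadjusted p of 0.0156, the smallest that 7 arrays allow, for Ppargc1a and Ppara in both groups.

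Pck1 encodes the cytosolic phosphoenolpyruvate carboxykinase, the rate-setting enzyme of gluconeogenesis. It had a value on 6 alcohol-fed arrays, from -4.41 (alcohol-fed 3) over a median of -3.59 to 0.40 (alcohol-fed 1), and on 5 pair-fed arrays, from -3.35 (pair-fed 1) over -1.225 to 0.02 (pair-fed 7). In alcohol-fed samples 5 of 6 arrays were below the pool and alcohol-fed 1 was not. The mean was -2.86 ± 1.80 (SD, n = 6), 7.25-fold lower, with a limma adjusted p of 0.00232, whereas the exact sign-change permutation test gave an unadjusted p of 0.0625 where 6 arrays allow 0.03125. In pair-fed samples the mean was -1.36 ± 1.26 (SD, n = 5) and did not pass (limma adjusted p = 0.122). That a call was made in the alcohol-fed group alone does not show that the groups differ: the difference itself, -1.49 ± 0.83 (SE), had an unadjusted limma p of 0.0908 and an adjusted p of 0.9996.

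Fbp1 encodes fructose-1,6-bisphosphatase, a later enzyme of the same pathway. It was measured on 6 arrays of each group, between -3.05 (alcohol-fed 4) and 1.33 (alcohol-fed 5) with a median of -1.46 in alcohol-fed samples, and between -4.38 (pair-fed 5) and 1.54 (pair-fed 7) with a median of -1.62 in pair-fed samples. In each group 4 arrays were below the pool and 2 above. Means were -1.14 ± 1.76 in alcohol-fed and -1.66 ± 2.56 in pair-fed samples (SD, n = 6 each), with limma adjusted p of 0.276 in alcohol-fed and 0.122 in pair-fed samples, so neither passed. Its pair-fed SD exceeded that of 97.6% of probes. Without pair-fed 7 the pair-fed mean was -2.31 and passed (limma adjusted p = 0.0444).

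Pdk4, the kinase that shuts pyruvate dehydrogenase and so spares glucose in fasting, was measured on only 4 alcohol-fed arrays, with -3.19 (alcohol-fed 7) as the lowest, -1.47 as the median and 0.51 (alcohol-fed 4) as the highest ratio. All 7 pair-fed arrays gave a value, from -6.01 (pair-fed 1) over -1.31 to -0.33 (pair-fed 2), each below the pool. The alcohol-fed mean of -1.41 ± 1.62 (SD, n = 4) did not pass (limma adjusted p = 0.194). The pair-fed mean of -1.93 ± 1.95 (SD, n = 7) passed, 3.81-fold lower (limma adjusted p = 0.0308). That call ended without pair-fed 1 (mean -1.25, limma adjusted p = 0.0688), without pair-fed 3 (-1.79, 0.0674) and when the 7 pair-fed arrays were fitted alone (0.0510).

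Cpt1a encodes the carnitine palmitoyltransferase that admits long-chain fatty acids to mitochondria, a target of PPARalpha. Its ratios in alcohol-fed samples ran from -1.64 (alcohol-fed 6) over 1.49 to 1.98 (alcohol-fed 5), and the next lowest array stood at 0.52. In pair-fed samples they ran from -0.065 (pair-fed 3) over 0.73 to 2.35 (pair-fed 7). The means of 1.02 ± 1.26 (SD, n = 7), 2.03-fold over the pool, in alcohol-fed and 0.87 ± 0.86 (SD, n = 6) in pair-fed samples did not pass (limma adjusted p = 0.0695 in alcohol-fed and 0.152 in pair-fed). Without alcohol-fed 6, which also had the most placeholders of its group, the alcohol-fed mean was 1.46 and passed (limma adjusted p = 0.00534). With that array kept, Cpt1a was also called higher in alcohol-fed samples after quantile normalization (1.30, limma adjusted p = 0.0195). The same held with the replicate number as a block (1.02, 0.0317) and with array weights (1.27, 0.00607), where alcohol-fed 6 had a weight of 0.45. In each of these settings the split became 1 higher and 3 lower instead of 0 and 3.

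Angptl4, a secreted inhibitor of lipoprotein lipase induced by fasting and PPARs, had the smallest spread of the 7 in alcohol-fed samples. Alcohol-fed samples lay between 0.075 (alcohol-fed 7) and 0.97 (alcohol-fed 1) with a median of 0.61, against -1.59 (pair-fed 7), 0.495 and 1.10 (pair-fed 3) in pair-fed samples. The alcohol-fed mean was 0.57 ± 0.31 (SD, n = 7), and only 0.9% of probes had a smaller SD in that group. It did not pass (limma adjusted p = 0.157), although all 7 arrays were above the pool and the exact sign-change permutation test gave an unadjusted p of 0.0156. The pair-fed mean of 0.26 ± 0.89 (SD, n = 7) did not pass either (limma adjusted p = 0.548), and without pair-fed 7 it was 0.57 (limma adjusted p = 0.124).

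**Figure D2:**
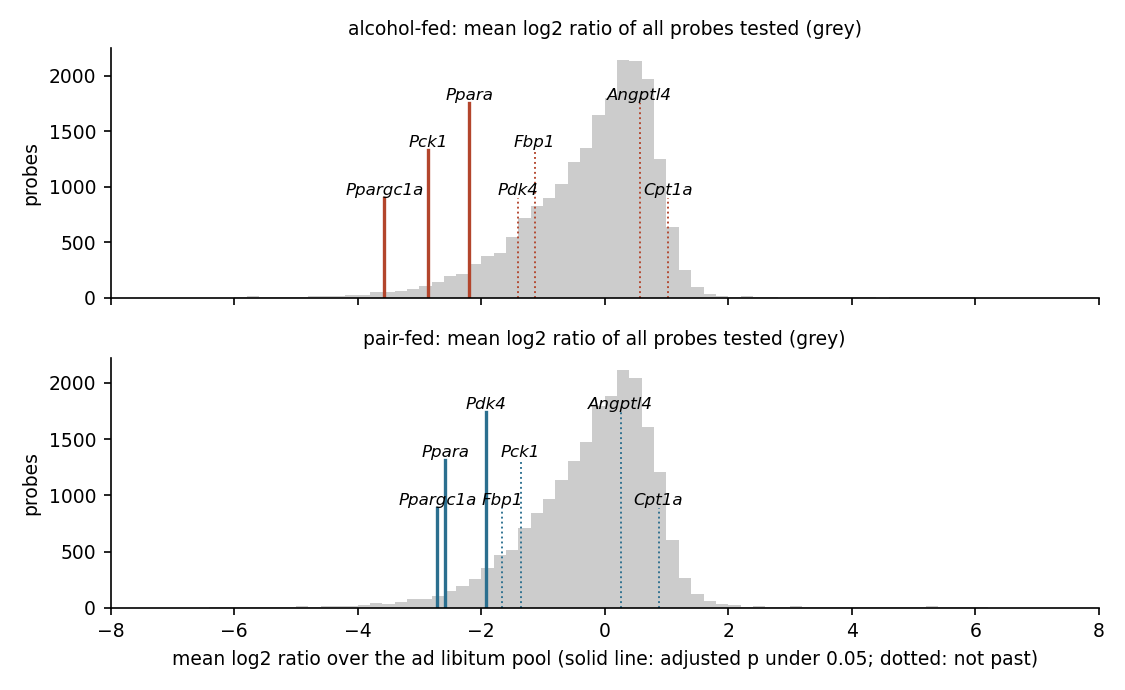
Mean log2 ratio over the ad libitum pool of all 20876 probes (grey, number of probes on the vertical axis) in alcohol-fed (top) and pair-fed samples (bottom), with the 7 fasting genes as lines, solid where the adjusted p was under 0.05. Ppargc1a, at -3.57 in alcohol-fed and -2.71 in pair-fed samples, and Ppara, at -2.20 in alcohol-fed and -2.58 in pair-fed samples, lie in the lower tail of both panels.

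The promoters of the 4 genes called against the pool are printed because these genes moved the same way, and the Pck1 promoter is a textbook example of control by cyclic AMP, glucocorticoids and insulin. The 250 bases before each start come from RefSeq (GRCm38.p6), 5′ to 3′ on the gene's strand: chr2:173152823-173153072 (+) for Pck1, chr5:51567726-51567975 (-) for Ppargc1a, chr15:85735526-85735775 (+) for Ppara and chr6:5496279-5496528 (-) for Pdk4. Capitals mark the core of the cyclic AMP response element, TGACG, or CGTCA where it lies on the other strand.
Pck1: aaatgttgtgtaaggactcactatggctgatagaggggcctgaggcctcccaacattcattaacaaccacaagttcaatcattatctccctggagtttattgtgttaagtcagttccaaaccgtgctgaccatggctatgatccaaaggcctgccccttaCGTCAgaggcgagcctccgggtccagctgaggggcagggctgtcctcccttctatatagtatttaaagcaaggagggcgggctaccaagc
Ppargc1a: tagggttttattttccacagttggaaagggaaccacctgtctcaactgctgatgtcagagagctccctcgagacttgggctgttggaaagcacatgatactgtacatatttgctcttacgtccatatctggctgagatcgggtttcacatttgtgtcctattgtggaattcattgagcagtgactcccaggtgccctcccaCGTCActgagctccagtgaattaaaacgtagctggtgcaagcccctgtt
Ppara: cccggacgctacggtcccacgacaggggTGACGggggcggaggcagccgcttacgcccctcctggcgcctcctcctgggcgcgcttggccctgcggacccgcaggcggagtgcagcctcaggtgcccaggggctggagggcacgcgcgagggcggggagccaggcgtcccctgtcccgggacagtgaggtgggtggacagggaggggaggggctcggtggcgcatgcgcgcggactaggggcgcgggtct
Pdk4: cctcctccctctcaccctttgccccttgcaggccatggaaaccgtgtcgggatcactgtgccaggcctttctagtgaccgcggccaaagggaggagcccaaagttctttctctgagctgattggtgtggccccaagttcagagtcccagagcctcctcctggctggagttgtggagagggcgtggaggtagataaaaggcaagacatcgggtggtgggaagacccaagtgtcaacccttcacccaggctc

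The core began at base -90 from the start in Pck1, -49 in Ppargc1a and -222 in Ppara. So 3 of the 7 fasting genes with a promoter in the table held it, against 17.8% of all 32851 promoters of the same length. These 7 differ from the 7 measured genes, since Tat is among them and Angptl4 has no entry. Those 3 are the genes called lower in alcohol-fed samples, as seen after both were known, and Pdk4 held none. No member promoter held the FoxO site GTAAACA (3.17% of all promoters), the glucocorticoid response element AGAACA and TGTTCT with 3 bases between (0.00913%) or the PPAR repeat of AGGTCA with 1 base between (0.0335%). Since the last pair is so rare, their single units were searched as well, a choice made after these counts were seen. AGGTCA occurred in Cpt1a alone of the members (14.0% of all promoters), at -94 on the other strand, and TGTTCT in none (16.1%). Both strands were searched, and a match in this window is a description of the letters, not a site in use.

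The comparison of alcohol-fed with pair-fed samples asks what ethanol added to the matched diet, with the pool cancelling. Of the 7 genes 0 passed by limma and 0 had an unadjusted p under 0.05, and 0% of all 20876 probes passed (881 had an unadjusted p under 0.05), and the adjusted limma p was 0.9996 for each of the 7. Values of the groups overlapped for all 7 genes, while 0.115% of all probes had groups that did not overlap. The largest difference was that of Pck1, -1.49 with a 95% interval from -3.26 to 0.27 on the log2 scale, followed by Ppargc1a at -0.86 (-2.22 to 0.50). The other 5 were positive and smaller: Fbp1 at 0.53 (-1.72 to 2.78), Pdk4 at 0.52 (-1.56 to 2.60), Ppara at 0.38 (-0.79 to 1.56), Angptl4 at 0.31 (-0.55 to 1.17) and Cpt1a at 0.15 (-1.08 to 1.38). Exact permutation tests over all assignments of the arrays gave unadjusted two-sided p from 0.160 (Pck1) to 0.815 (Cpt1a). Single arrays moved several of these: without pair-fed 1 the difference of Ppargc1a was -1.41 ± 0.50 (SE, limma adjusted p = 0.954), without pair-fed 7 that of Ppara was 0.03 and that of Angptl4 0.003, and without alcohol-fed 2 that of Ppara was 0.04. These intervals are wide, so the test does not show that the groups are alike.

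**Figure D3:**
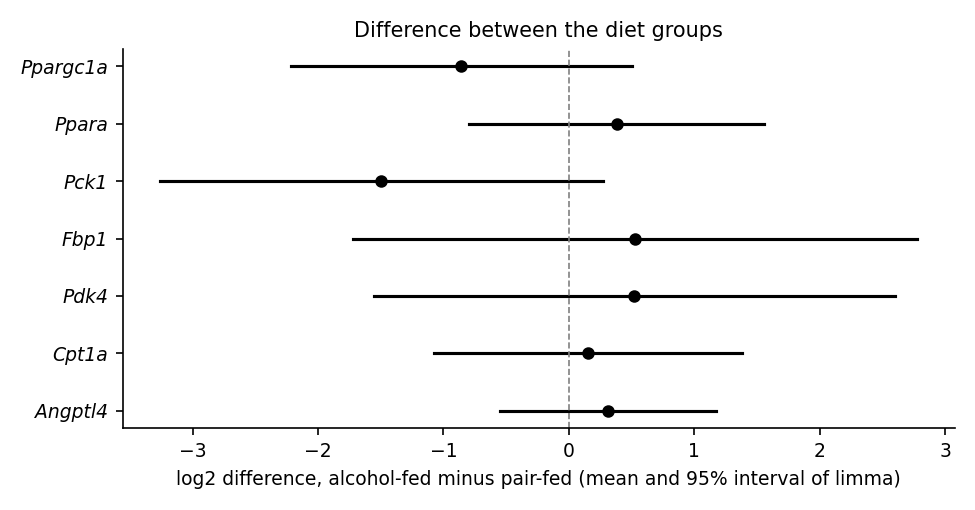
Log2 difference, alcohol-fed minus pair-fed (horizontal axis), of the 7 fasting genes, with points for the limma estimate and lines for its 95% interval. All 7 intervals include 0, the narrowest being that of Angptl4 from -0.55 to 1.17.

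The 7 genes did not move as a block from array to array. Of 21 pairs, over 8 to 14 shared arrays, 10 had a Pearson r above 0 and 11 below, with a median of -0.02. The highest was Ppargc1a with Pdk4 at r = 0.85 over 11 arrays, where pair-fed 1 was lowest for both, and without that array r was 0.53 over 10. Pair-fed 1 was also the lowest pair-fed array for Pck1, and without it the pair-fed mean of Pck1 was -0.87 (limma adjusted p = 0.369). Pck1 with Ppargc1a gave r = 0.51 over 11 arrays, and the lowest was Fbp1 with Ppara at r = -0.55 over 12. These are descriptions, since probes of an array share its hybridisation and scale.

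The named probes whose pattern over the arrays was most like a member's were searched among 11466 to 15709 candidates for each. They were Rrh, an opsin relative of the retina, for Ppargc1a (r = 0.86 over 14 arrays), Serhl for Ppara (0.83 over 14), the poly(A)-binding protein gene Pabpc2 for Pck1 (0.94 over 10) and 2810403D21Rik for Fbp1 (0.92 over 12). For Pdk4 it was 1700020G17Rik (0.95 over 11), for Cpt1a Msantd3 (0.91 over 13) and for Angptl4 4921517D16Rik (0.93 over 14). Rrh had log2 ratios of -3.10 in alcohol-fed and -2.29 in pair-fed samples, close to those of Ppargc1a. Other partners lay above the pool where their member lay below it. They were Serhl (0.10 in alcohol-fed, 0.21 in pair-fed), 2810403D21Rik (0.75, 0.68) and 1700020G17Rik (0.23, 0.10). Pabpc2 stood at -2.04 and -0.66, Msantd3 at 1.25 and 0.92, and 4921517D16Rik at 0.43 and -0.16. A like pattern over the arrays thus did not mean a like ratio to the pool. With so many candidates over so few arrays a high r arises in any case.

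Other genes of the fasting and feeding pathways were counted in 7 lists, of whose 118 genes 85 were tested. In alcohol-fed samples 6 rose and 16 fell against the pool, and in pair-fed samples 12 rose, 11 fell and Foxo3, with its probes in opposite directions, made 1 more. That is 22 of 85 called (25.9%) in alcohol-fed and 24 (28.2%) in pair-fed samples, near the 23.5% of all probes in alcohol-fed and 21.3% in pair-fed samples, and the counts of single lists below stand against the same shares. A gene counted as called where any of its probes passed, so shares of genes stand here beside shares of probes. With only the 61 genes that have probes measured on all 14 arrays, the split was 6 higher and 2 lower in alcohol-fed and 13 higher and 3 lower in pair-fed samples. The split in alcohol-fed samples also depended on scaling, being 10 higher and 11 lower with values as deposited and 18 higher, 15 lower and 1 both ways after quantile normalization. The same holds for all probes, with 34.1% of calls higher in the alcohol-fed and 36.9% in the pair-fed group, against 44.2% in alcohol-fed and 47.5% in pair-fed with values as deposited, and 48.7% in alcohol-fed and 48.4% in pair-fed after quantile normalization. Those settings moved the median of all probes to 0.14 in alcohol-fed and to 0.08 or 0.09 in pair-fed samples. The median of the fully measured probes alone was 0.23 in alcohol-fed and 0.16 in pair-fed samples. Between alcohol-fed and pair-fed samples 0 of 85 passed by limma, and 2 had an unadjusted p under 0.05.

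Gluconeogenic enzymes and carriers stood lowest, with a median of -2.24 in alcohol-fed and -1.65 in pair-fed samples over 7 measured genes, where that of all 14606 named genes was 0.02 in alcohol-fed and -0.03 in pair-fed samples. In alcohol-fed samples 4 fell and 1 rose, and in pair-fed samples 2 fell and 1 rose. Each gene that fell lacked a value on at least 1 array. Only Gpt and G6pc3 had a value on every array. Gpt was the gene that rose in both groups. It stood at 0.78 ± 0.27 in alcohol-fed (SE, limma adjusted p = 0.0473) and 0.90 ± 0.27 in pair-fed samples (0.0267). G6pc3 passed in neither, at -1.24 ± 0.49 in alcohol-fed (limma adjusted p = 0.0736) and 0.19 ± 0.49 in pair-fed samples (0.804). The low median of the list thus rests on genes with missing values. Mdh1, the cytosolic malate dehydrogenase that passes carbon to Pck1, was at -3.51 ± 0.68 in alcohol-fed and -3.85 ± 0.74 in pair-fed samples (SE, limma adjusted p = 0.00175 and 0.00166). G6pc, the glucose-6-phosphatase that releases free glucose, fell in alcohol-fed samples at -2.24 ± 0.71 (limma adjusted p = 0.0349) and stood at -1.71 ± 0.71 in pair-fed samples (limma adjusted p = 0.0976). In each group G6pc lay below the pool on 4 arrays and above it on 1, and the rest gave no value. The mitochondrial dicarboxylate carrier Slc25a10 fell in alcohol-fed samples at -3.12 ± 0.96 (limma adjusted p = 0.0299), against -1.65 ± 1.05 in pair-fed samples (limma adjusted p = 0.275). Slc25a10 lay below the pool on 5 alcohol-fed and 4 pair-fed arrays and above it on 1 array of each group.

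Among 13 genes of the glucocorticoid response and amino acid breakdown, 1 rose and 2 fell in alcohol-fed and 2 rose and 1 fell in pair-fed samples, with medians of 0.04 in alcohol-fed and -0.47 in pair-fed samples. A probe of Nr3c1, the glucocorticoid receptor, was at -2.18 ± 0.48 in alcohol-fed (limma adjusted p = 0.0056) and -1.32 ± 0.53 in pair-fed samples (0.0879). The other Nr3c1 probe lay on the other side, at 0.47 ± 0.31 in alcohol-fed (limma adjusted p = 0.284) and 0.33 ± 0.31 in pair-fed samples (0.470), and did not pass. Igfbp1, a binding protein of insulin-like growth factors raised by fasting, fell in both, at -1.71 ± 0.52 in alcohol-fed and -2.18 ± 0.52 in pair-fed samples (limma adjusted p = 0.0263 and 0.0081). Oat, ornithine aminotransferase, rose in both, at 0.85 ± 0.26 in alcohol-fed and 1.20 ± 0.26 in pair-fed samples (limma adjusted p = 0.0264 and 0.00368).

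Of 20 regulators of the fasting response, 1 rose and 6 fell in alcohol-fed samples, and 3 rose and 3 fell in pair-fed samples, beside Foxo3 (medians -0.36 in alcohol-fed and -0.27 in pair-fed). In alcohol-fed samples Foxo3 counts among the 6 by 1 probe, at -1.03 ± 0.29 (limma adjusted p = 0.0193). Its other probe stood at 0.85 ± 0.32 there and did not pass (limma adjusted p = 0.0647). Pparg, the fat cell relative of Ppara, was at -3.11 ± 0.81 in alcohol-fed (limma adjusted p = 0.0165) and -0.70 ± 0.91 in pair-fed samples (0.615); their difference had an unadjusted limma p of 0.0702. A probe of Hnf4a, the hepatocyte nuclear receptor, stood at -2.60 ± 0.84 in alcohol-fed (limma adjusted p = 0.0361) and -1.36 ± 0.76 in pair-fed samples (0.213), while its other probe did not pass in alcohol-fed samples, at 0.40 ± 0.38 (limma adjusted p = 0.459), and was called higher in pair-fed samples, at 1.12 ± 0.38 (0.0431). Nr1h3, the oxysterol receptor LXRalpha, fell in both, at -2.35 ± 0.74 in alcohol-fed and -2.41 ± 0.74 in pair-fed samples (limma adjusted p = 0.0314 and 0.0301).

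Fatty acid oxidation and ketogenesis, with 23 genes and medians of 0.09 in alcohol-fed and 0.12 in pair-fed samples, had 2 higher and 2 lower in each group. Hadh, a dehydrogenase of beta-oxidation, fell in both, at -2.40 ± 0.41 in alcohol-fed and -1.30 ± 0.38 in pair-fed samples (limma adjusted p = 0.000568 and 0.0221). Ucp3, the muscle uncoupling protein, was at -0.54 ± 0.31 in alcohol-fed (limma adjusted p = 0.204) and -1.24 ± 0.31 in pair-fed samples (0.0094). Fabp1, the fatty acid binding protein of liver, was at -1.02 ± 0.35 in alcohol-fed (limma adjusted p = 0.0456) and -0.48 ± 0.38 in pair-fed samples (0.382).

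Of 6 pyruvate dehydrogenase genes 1 rose in each group, the subunit Dld at 0.94 ± 0.25 in alcohol-fed and 0.96 ± 0.25 in pair-fed samples (limma adjusted p = 0.0139 and 0.0132), with list medians of 0.40 in alcohol-fed and 0.34 in pair-fed samples. Of 6 lipoprotein lipase genes 0 passed in alcohol-fed samples by limma (4 had an unadjusted p under 0.05), and 2 rose and 1 fell in pair-fed samples, with list medians of 0.61 in alcohol-fed and 0.59 in pair-fed samples. The lipase anchor Gpihbp1 stood at 0.93 ± 0.38 in alcohol-fed and 1.45 ± 0.38 in pair-fed samples, Apoc3, an inhibitor of lipoprotein clearance, at -0.71 ± 0.33 in alcohol-fed and -1.05 ± 0.33 in pair-fed samples. Apoa5, an activator of lipolysis, stood at 0.76 ± 0.30 in alcohol-fed and 0.89 ± 0.30 in pair-fed samples, and these 3 passed in pair-fed samples alone, with no difference between the groups passing. Of 10 genes of fed-state glycolysis and lipogenesis 2 fell in alcohol-fed samples, and 1 rose and 2 fell in pair-fed samples, with medians of 0.46 in alcohol-fed and 0.21 in pair-fed samples. Thrsp, a lipogenic gene of the fed state, fell in both, at -1.22 ± 0.37 in alcohol-fed and -1.38 ± 0.37 in pair-fed samples (limma adjusted p = 0.0251 and 0.0143), as did a probe of the acetyl-CoA carboxylase Acacb at -1.82 ± 0.53 in alcohol-fed and -1.72 ± 0.44 in pair-fed samples (limma adjusted p = 0.0256 and 0.0136). That probe had values on 4 alcohol-fed and 6 pair-fed arrays, and the other Acacb probe did not pass, at 0.54 ± 0.29 in alcohol-fed (limma adjusted p = 0.173) and 0.04 ± 0.29 in pair-fed samples (0.930). Mlxipl, the glucose-sensing factor ChREBP, stood at 0.77 ± 0.32 in alcohol-fed and rose in pair-fed samples at 0.92 ± 0.32 (limma adjusted p = 0.0874 and 0.0491).

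**Figure D4:**
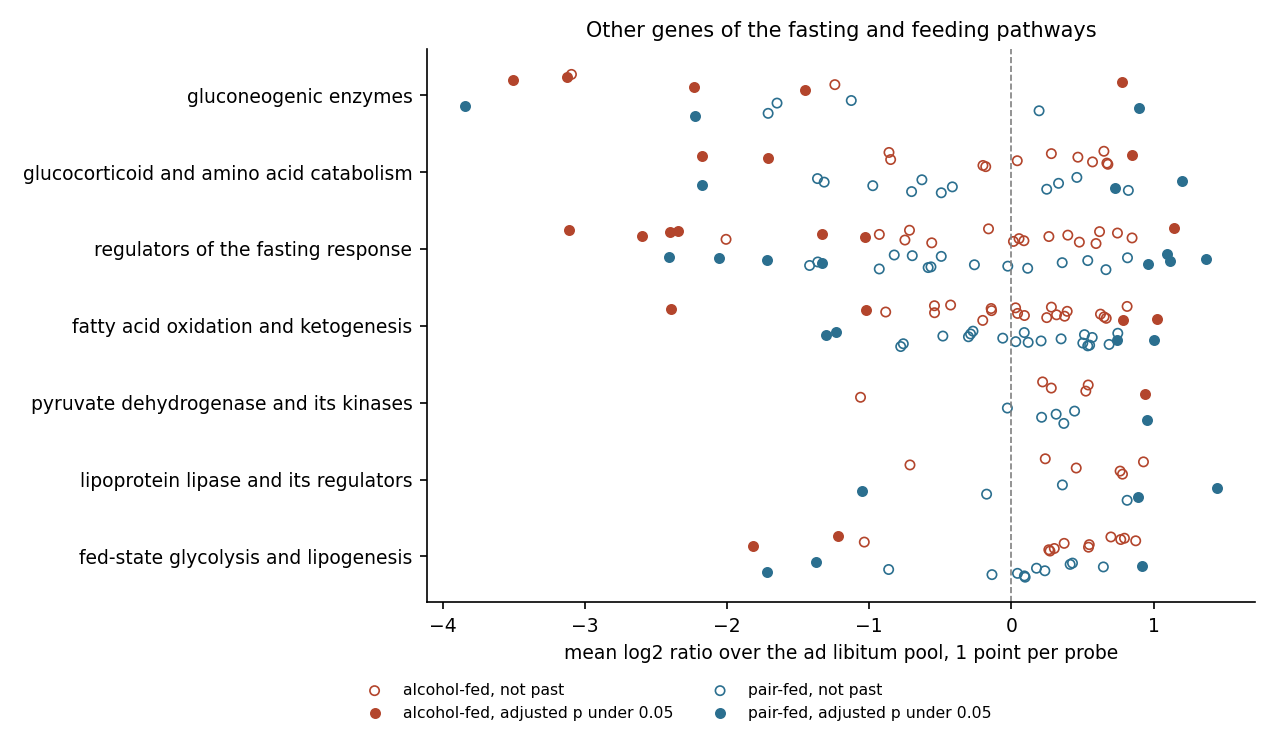
Mean log2 ratio over the ad libitum pool (horizontal axis) of every probe in 7 pathway lists, with alcohol-fed above pair-fed in each list and filled points where the adjusted p was under 0.05. Gluconeogenic enzymes lie mostly left of 0, down to -3.51 in alcohol-fed and -3.85 in pair-fed samples, while probes of the lipoprotein lipase and pyruvate dehydrogenase lists lie mostly right of it. The gluconeogenic probes called lower all lacked a value on some arrays.

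Many of these list calls lay near the threshold and were lost without single arrays. The counts here cover the list genes named for their largest ratios, without Gpt, G6pc3 and Foxo3. Of 14 such genes called in alcohol-fed samples, 4 kept the call without any 1 array (Mdh1, the lower probe of Nr3c1, Hadh and Dld). Of 13 called in pair-fed samples 8 did (Mdh1, Igfbp1, Oat, Ucp3, Dld, Gpihbp1, Acacb and Thrsp). Of 64 such losses, counted per gene, group and array left out, 26 left a ratio at least as large as with all arrays. Those 26 include losses where the array left out was of the other group, so that the ratio could not change. They are Fabp1 in alcohol-fed samples without pair-fed 2, 3 or 5, and Mlxipl in pair-fed samples without any 1 alcohol-fed array. In 3 losses the ratio left was smaller by over 1.5 times. These 3 were a probe of Hnf4a without alcohol-fed 7 (-1.35, limma adjusted p = 0.136) and Thrsp without alcohol-fed 6 (-0.77, 0.0693) in alcohol-fed samples, and Nr1h3 without pair-fed 5 (-1.48, 0.102) in pair-fed samples. In alcohol-fed samples the call also ended without alcohol-fed 1, 2, 3 or 4 for G6pc (ratios from -2.42 to -1.80, highest limma adjusted p 0.123), without 3, 4 or 7 for Slc25a10 (-2.71 to -2.45, 0.104) and without 2, 3, 4 or 5 for Igfbp1 (-1.74 to -1.48, 0.0822). It ended without 1, 4, 6 or 7 for Oat (0.66 to 0.84, 0.0866), without 3 or 6 for Pparg (-2.89 to -2.59, 0.0628), without 2 or 3 for Hnf4a (-2.72 to -2.67, 0.0703) and without 1, 2, 3 or 5 for Nr1h3 (-2.43 to -1.69, 0.111). It ended without 1, 2, 4 or 5, or pair-fed 2, 3 or 5, for Fabp1 (-1.04 to -0.73, 0.142), without 1, 3 or 4 for Acacb (-1.95 to -1.27, 0.128) and without 4 or 5 for Thrsp (-1.18 to -1.14, 0.0642). In pair-fed samples it ended without pair-fed 1, 2 or 4 for Nr1h3 (-2.54 to -2.40, 0.0610), without 3 or 4 for Hadh (-1.09 to -1.05, 0.0719) and without 1, 2, 5 or 6 for Apoc3 (-1.10 to -0.72, 0.0928). It ended without 2, 3, 4, 5, 6 or 7 for Apoa5 (0.75 to 0.93, 0.117), and without 1, 2, 4 or 7 or any 1 alcohol-fed array for Mlxipl (0.66 to 0.94, 0.149). Calls were gained without pair-fed 6 by G6pc (-2.44, limma adjusted p = 0.0244) and Nr3c1 (-1.79, 0.0323) in pair-fed and by Gpihbp1 (0.0285) in alcohol-fed samples, and without alcohol-fed 5 by Apoa5 (0.0373).

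Placeholders moved with the lower calls. In alcohol-fed samples 15 of 16 list probes called lower lacked a value on at least 1 of the 14 arrays, as did 0 of 6 called higher, and in pair-fed samples 9 of 12 called lower and 0 of 13 called higher did. Over all probes tested the shares were 51.5% of lower and 6.03% of higher calls in alcohol-fed and 44.7% and 5.12% in pair-fed samples, where 29.7% of all probes lacked a value. With only fully measured probes, 1675 were called higher and 1655 lower in alcohol-fed, and 1776 higher and 1696 lower in pair-fed samples, so the excess of lower calls was not present among them. Arrays stayed centred on the median of all probes, and the median of the fully measured ones was 0.23 in alcohol-fed and 0.16 in pair-fed samples. The split with arrays centred on these probes alone was not tested. With placeholders kept as measured, 4 list genes were higher and 12 lower in alcohol-fed samples, and 10 higher, 10 lower and 1 both ways in pair-fed samples. Of all probes, 21.6% were called in alcohol-fed and 18.2% in pair-fed samples in that setting. Ppargc1a and Ppara had values on all 14 arrays, and Pck1, Fbp1, Pdk4 and Cpt1a did not.

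The members are made mainly in liver, kidney, fat, muscle and intestine, and markers of these tissues and of placenta moved against the pool as well. Of 43 such genes 20 were called (46.5%) in alcohol-fed and 16 (37.2%) in pair-fed samples, against 23.5% of all probes in alcohol-fed and 21.3% in pair-fed samples. A gene counted as called where any of its probes passed, which gives genes with several probes more chances than a single probe has. Of 13 hepatocyte markers 5 fell in alcohol-fed samples, and 5 fell and 1 rose in pair-fed samples. Hnf4a counts as fallen in alcohol-fed samples by 1 probe and as risen in pair-fed samples by the other. Trf counts as fallen in both groups by 1 of its 3 probes, and the others, at -0.89 and 0.29 in alcohol-fed and -0.99 and 0.40 in pair-fed samples, did not pass. Rbp4 was at -2.40 in alcohol-fed and -2.62 in pair-fed samples, while Alb, at 0.35 in alcohol-fed and -1.49 in pair-fed samples, and Afp, at -0.26 in alcohol-fed and -0.20 in pair-fed samples, did not pass. The median hepatocyte probe ran from -0.69 to 0.01 over alcohol-fed and from -0.78 to -0.03 over pair-fed arrays. Of 6 kidney tubule markers 3 fell in each group, of 6 fat markers 1 rose and 2 fell in alcohol-fed and 0 passed in pair-fed samples (limma, 2 with an unadjusted p under 0.05, the lowest 0.0142 for Fabp4), and of 9 muscle and heart markers 1 rose and 4 fell in alcohol-fed and 1 rose and 5 fell in pair-fed samples. Of 4 intestine markers 1 fell in alcohol-fed and 0 passed in pair-fed samples (limma, 1 with an unadjusted p under 0.05, Guca2a at 0.0363), and of 5 placenta markers 2 rose and 1 fell in alcohol-fed and 1 rose in pair-fed samples. Their part in the members' ratios was not tested. Ratios do not tell whether a marker is present, so no tissue can be named from them.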

How the data were processed

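The deposited table holds 1 log2 ratio per probe and array for 21582 probes and 14 arrays, 7 per group; per the labels, sample RNA carried Cy5 and the pool Cy3. The scanner and the authors' normalization, not given in the sources used here, stay unknown. Exact zeros and the table's highest value (16.61) were set to missing, and each array was centred on its median. The 20876 probes with at least 4 values per group were fitted together by limma 3.58.1 in R 4.3.3, and p-values were adjusted by Benjamini-Hochberg over all of them; 706 probes were left out. Alcohol-fed was set against pair-fed, and the mean of either group against 0, which stands for the pool. Exact permutation tests of single genes used scipy 1.17.1. Probes were named from GEO's platform annotation, where 16635 have 1 symbol, 113 several and 4834 none, and 15957 of the named matched RefSeq (GRCm38.p6). The fit was tested on simulated data. Precision is limited by the number of arrays, whose pairwise correlations ran from 0.257 to 0.692, with at most 0.29% identical values.

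The members and lists were chosen with earlier results of these data known. In each pathway list the text names up to 3 genes past the threshold in either group against the pool, those with the largest absolute log2 ratio. Foxo3, Gpt, G6pc3 and the tissue markers given with values were chosen after their values were seen. The gene most like a member is the named probe of highest Pearson r, over all 14 arrays where the member has them and otherwise over at least 10. Same-numbered arrays had deviations correlated from -0.08 to 0.185, so numbers were not taken as pairs. Alternatives covered scaling, placeholders, filters, weights, a replicate block, averaging of probes and leaving out arrays; leaving out the 3 arrays with most placeholders was added after seeing the data.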

Additional observations from a re-analysis of the deposited data

Results flagged for a closer look

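In 14 sets of 7 or fewer arrays, 1 per gene and group, 5 arrays lay far from the others of their group by a rule on the gap to the next array. Its nominal rate is about 1 in 20 sets. The share of all probes that this rule flags was not computed, and the sets share the same arrays. The 5 therefore cannot be called more than other probes would give. Pair-fed 1 was far below the other pair-fed arrays for Ppargc1a (log2 ratio over the pool -6.00) and for Pdk4 (-6.01). Alcohol-fed 2 was far above the other alcohol-fed arrays for Ppara (-0.16). Alcohol-fed 6 was far below for Cpt1a (-1.64), and pair-fed 7 far below for Angptl4 (-1.59). Alcohol-fed 6 and pair-fed 7 are among the 3 arrays with the most placeholders, at 7.91% and 9.51% of probes, and pair-fed 1 had 3.33%. The cause of these values was not tested.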

How the results depend on the processing

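Ppargc1a and Ppara were called lower against the pool in both groups under every alternative run, and Pck1 in alcohol-fed samples under every limma alternative that kept its probe but not by the exact permutation test (unadjusted p = 0.0625). No member passed between alcohol-fed and pair-fed samples under any. Leaving out single arrays gave 3 to 4 members called in alcohol-fed and 2 to 4 in pair-fed samples, and leaving out the 3 arrays with most placeholders gave 4 in alcohol-fed and 4 in pair-fed samples, adding Cpt1a and Fbp1. List genes called in alcohol-fed samples numbered 34 after quantile normalization, 8 of 61 with fully measured probes only and 11 to 24 without single arrays, against 22. The shares of all probes called were 28.5%, 22.7% and 17.3% to 25.6% in these settings, against 23.5%. With array weights 31 list genes and 30.3% of all probes were called in alcohol-fed samples. In pair-fed samples list genes numbered 15 when that group was fitted alone and 17 to 23 without single arrays, against 24. There the shares of all probes were 14.5% and 15.6% to 23.4%, against 21.3%. Some differences between alcohol-fed and pair-fed samples that had not passed changed sign. Without single arrays Pdk4 ran from -0.16 (without pair-fed 1; -0.12 without alcohol-fed 4) to 1.12, Cpt1a from -0.0374 (without pair-fed 3; -0.0107 without alcohol-fed 5) to 0.59 and Fbp1 from -0.0136 (without pair-fed 5) to 1.17, and Angptl4 was at -0.13 without the 3 arrays with most placeholders. In pair-fed samples Pparg ran from -1.88 to 0.24 (without pair-fed 1). The cause of these changes of sign was not tested. Hnf4a, whose 2 probes stood at -1.36 and 1.12 in pair-fed samples, was at 0.0407 there with its probes averaged. With the replicate number as a block, 4 members were called in alcohol-fed samples (Cpt1a added, at 1.02, limma adjusted p = 0.0317), 3 in pair-fed samples and 0 between them, and list genes numbered 16 in alcohol-fed and 19 in pair-fed samples. Of all probes, 21.1% were called in alcohol-fed and 19.4% in pair-fed samples in that setting. Only replicates 2 and 4 correlated best with their own number. With 7 arrays a group, wide intervals limit what the comparison of the groups can show.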
